A study of Mus musculus with 2 samples.

Results

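Monocytes and monocyte-derived cells with little C1q message were examined among live CD45+ immune cells sorted from lenvatinib-resistant mouse hepatocellular carcinoma (HCC). The cells were chosen by single-cell RNA counts of a few genes. A cell was taken if it had at least 1 unique molecular identifier (UMI, a tag that counts 1 captured mRNA molecule) of Csf1r and at least 3 UMIs over Vcan, F13a1, Fn1, Ccr2 and Ms4a6c. It also had fewer than 10 UMIs over the 3 C1q genes, under 1% of its UMIs from S100a8 and S100a9, at most 1 UMI of Cd3d, Cd3e and Cd3g, and 0 UMIs of Cd79a, Xcr1, Siglech and Cd209a. These limits kept 827 of 25814 cells, 170 of 14201 under lenvatinib and 657 of 11613 under the combination.

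Both libraries came from liver tumors of wild-type male C57BL/6J mice in which a MYC plasmid, a Trp53-targeting guide and sleeping beauty transposase were delivered by hydrodynamic tail-vein injection at 6 to 8 weeks of age (Trp53KO/MYCOE tumors). Lenvatinib (30 mg/kg), a multikinase inhibitor of VEGF and FGF receptors, was started 12 days after injection and given for 25 days, after which mice received lenvatinib or the combo of lenvatinib and palbociclib (100 mg/kg), an inhibitor of CDK4 and CDK6. Both groups were therefore given the same plasmids and the same 25 days of lenvatinib before they were split. The tumor cells rather than the immune cells held the plasmids. With 1 library per condition and the number of mice behind each library not given in the sources used here, treatment and library cannot be told apart, and no test between conditions was possible. The intervals in parentheses are exact 95% intervals, Poisson for counts scaled to a common UMI total (CPM) and ratios of CPM and Clopper-Pearson for shares. They cover counting error only.

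Monocytes arise in the bone marrow and reach tissues through the blood. Classical monocytes in mice carry Ly6C and use CCR2 to leave the marrow, whereas non-classical monocytes patrol the vessel wall and depend on the transcription factor NR4A1. In an injured or tumor-bearing liver, recruited monocytes can become macrophages that take up lipid and debris, present antigen through MHC class II, or secrete chemokines for neutrophils. Kupffer cells, the resident macrophages of liver, are a separate population.

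Total depth was 98107503 UMIs over 14509 barcodes under lenvatinib and 93583402 UMIs over 11989 barcodes under combo, and 308 and 376 barcodes were removed for more than 6000 genes or more than 25% mitochondrial UMIs. A total of 49 barcodes occurred in both libraries. They included 1 and 4 of the selected cells, and no barcode was selected in both. Scrublet called 634 (4.46%) and 320 (2.76%) of the kept cells doublets, among them 5 and 8 of the selected cells. The selected cells gave 1471052 and 6806345 UMIs, with medians of 7228 and 10155 UMIs and 2396.5 and 2819 genes per cell, so the lenvatinib values rest on fewer and shallower cells.

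The selected cells made up 1.2% (1.02 to 1.39) of kept cells under lenvatinib and 5.66% (5.24 to 6.09) under combo. The ratio of the shares was 4.73 (3.77 to 5.95). With T, B and NK cells taken out of the denominator the shares were 4.86% and 16.3%, a ratio of 3.36. Cells with over 10% mitochondrial UMIs formed 13.5% (8.77 to 19.6) of the selected cells under lenvatinib and 22.1% (19.0 to 25.4) under combo, and their part in the share was not tested.

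**Figure D1:**
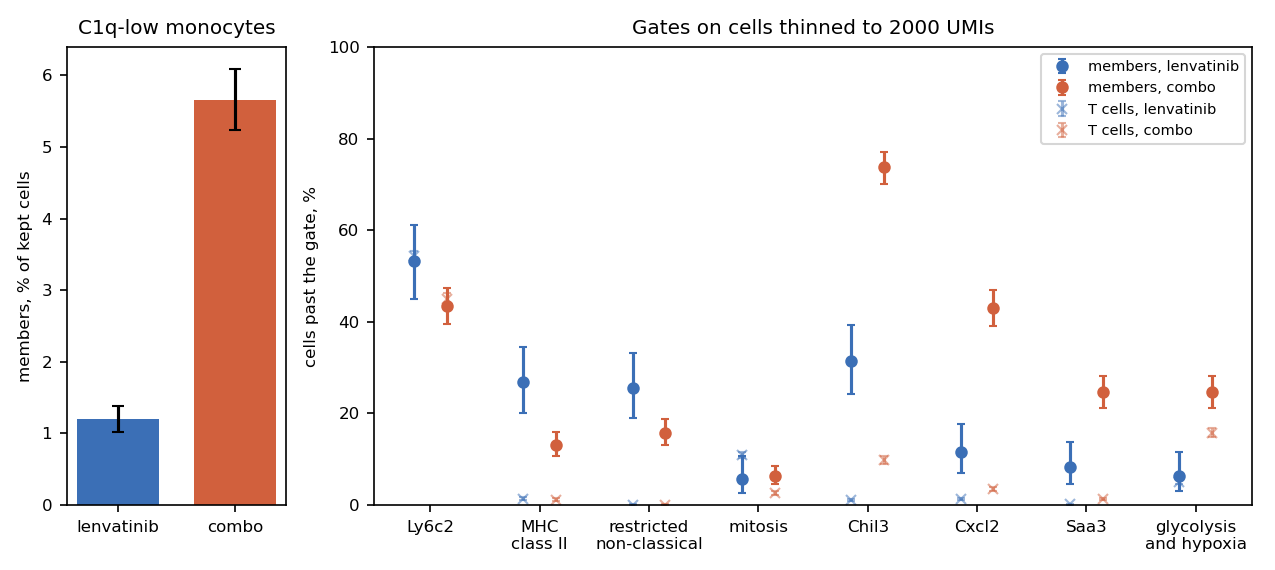
Left, selected cells as a percent of kept cells in each library. Right, percent of selected cells (circles) and T cells (crosses) past each gate after thinning to 2000 UMIs, with exact 95% intervals. MHC class II cells were 26.9% under lenvatinib and 13.1% under combo, while T cells stayed near 1% in both.

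The label was checked against genes the selection did not use. Lyz2 (lysozyme) was at 9713 CPM under lenvatinib and 13574 under combo, and in 88.8% and 98.2% of the cells, against 25.5 and 144 CPM in T cells that met the same limit on S100a8 and S100a9, which are meant wherever CPM of T cells are given. Plac8, a gene of marrow-derived monocytes, was at 3378 and 3376 CPM against 246 and 277 in those T cells. Ptprc, which encodes CD45, was found in 97.6% and 98.0% of the cells. Summed levels of 9 Kupffer cell genes were only 4.08 and 4.70 CPM, with Clec4f and Timd4 at 0 in both libraries. Hepatocyte, endothelial, basophil and erythroid lists each summed to under 50 CPM in both libraries, and no gene of these lists reached a mean of 20 CPM. Classical monocyte genes did not set the selected cells far apart from neutrophil-gated cells, which are described below. Those 12 genes summed to 21188 and 29079 CPM in selected cells and to 17520 and 25759 in neutrophil-gated cells. The neutrophil list did differ, at 508 and 989 CPM against 66570 and 65506.

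Genes of at least 50 CPM in mean were ranked by their ratio to all other kept cells, taking the lower of the 2 libraries. The top 10 are given as a description, since the same cells were chosen on related genes. Besides the rule genes Fn1 and Csf1r they included Adgre4, Ace, Clec4a1, Clec4a3, Trem2, Fcgr1 and Cd302. Ace (angiotensin-converting enzyme) exceeded other cells 45.0-fold under lenvatinib and 14.7-fold under combo, and the lectin receptors Clec4a1 and Clec4a3 39.0- and 44.0-fold against 14.2- and 13.5-fold. The Fc receptor gene Fcgr1 stood 18.3- and 12.99-fold above the other cells.

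The genes that set the selection are described without any test. Csf1r, the receptor for colony-stimulating factor 1, was at 307 CPM under lenvatinib and 339 under combo. Ccr2 was at 661 and 666 CPM, the transglutaminase gene F13a1 at 555 and 609, and fibronectin (Fn1) at 622 and 570. Vcan, the matrix proteoglycan versican, was at 233 and 366 CPM and Ms4a6c at 835 and 1021. S100a8 and S100a9, which the rule capped, were at 522 and 86.3 CPM under lenvatinib and 1369 and 670 under combo.

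Cells just past the limits showed where the selection was soft. The requirement for Csf1r alone kept out 1468 cells under lenvatinib and 636 under combo. Those cells had 1456 and 1334 CPM of Nkg7, a gene of cytotoxic lymphocytes, whereas cells with exactly 1 Csf1r UMI had 439 and 314. Lyz2 was at 138 and 1043 CPM in the cells without Csf1r and at 5078 and 8063 in those with 1 UMI. Of the combo cells, 94 failed only the S100a8 and S100a9 limit, against 6 under lenvatinib. The 14 combo cells with 0.8 to 1% of their UMIs from S100a8 and S100a9 had 18594 CPM of Lyz2 and the 10 with 1 to 1.2% had 21529. Only 25 and 28 cells failed on C1q alone.

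Among 5609 genes with a mean of at least 20 CPM over both libraries, 75 (1.34%) were at least 2-fold higher and 128 (2.28%) at least 2-fold lower under combo in the selected cells. The median log2 ratio of combo to lenvatinib over those genes was -0.10, with quartiles of -0.35 and 0.14, so most of them lay below a ratio of 1. These shares and quartiles are the background for the counts of each list below. Scaling by the median of ratios instead of total UMIs moved the median log2 ratio to 0.10 and the split to 126 higher and 72 lower. With genes left out whose mean level over both libraries in T cells was 50% or more of that in selected cells, a choice made after seeing the data, 1150 genes were considered, of which 53 were at least 2-fold higher and 13 lower.

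**Figure D2:**
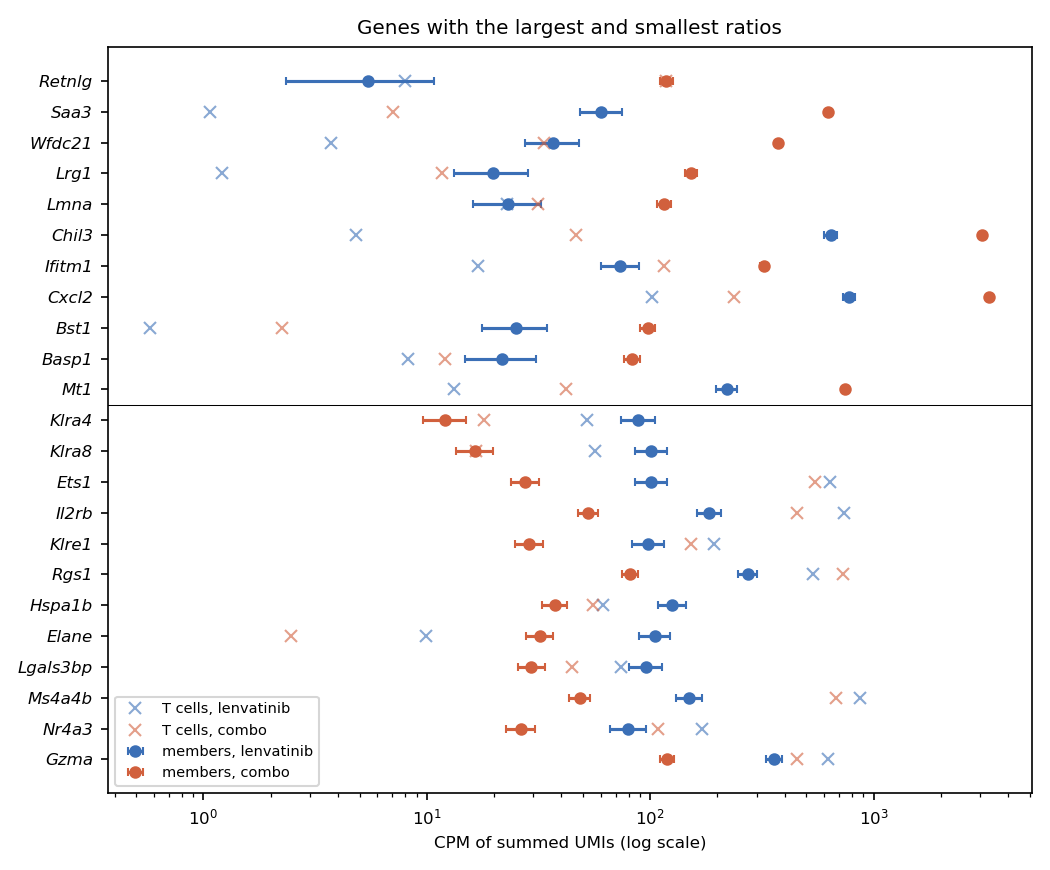
CPM (log axis) under lenvatinib and combo of genes among the 12 with the largest and the 12 with the smallest combo-to-lenvatinib ratio among genes with a mean of at least 50 CPM, with crosses for T cells under 1% S100a8 and S100a9. Saa3, Cxcl2 and Chil3 lie far above the T cell crosses, whereas Retnlg meets them at 118 CPM. Neutrophil-gated cells, described below, are not drawn and held 8590 and 12589 CPM of Cxcl2.

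Chil3, which encodes the chitinase-like secreted protein Ym1, was the most abundant of the 12 genes with the largest ratios apart from the chemokine gene Cxcl2. It was at 642 CPM (602 to 685) under lenvatinib and 3051 (3010 to 3093) under combo, a ratio of 4.75 (4.40 to 5.14). After every cell was thinned to 2000 UMIs, 31.4% (24.2 to 39.3) of selected cells held Chil3 under lenvatinib and 73.7% (70.1 to 77.1) under combo. Thinned T cells held it in 1.09% and 9.82%, and B cells in 0.231% and 9.44%. Without thinning the selected cells were at 41.2% and 83.9% and T cells at 3.64% and 24.4%. Median depths before thinning were 7228 and 10155 UMIs in selected cells, 6287 and 5662.5 in T cells, and 3327 and 3446 in B cells. Neutrophil-gated cells had at least 5% of UMIs from S100a8 and S100a9, at most 1 Cd3 UMI and no Csf1r or Cd79a. They held 3090 and 2836 CPM of Chil3. The gene lies on mm10 chromosome 3 at positions 106147554 to 106167564, on the minus strand.

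Cxcl2, a ligand of the neutrophil receptor CXCR2, was at 777 CPM (733 to 823) under lenvatinib and 3274 (3232 to 3318) under combo, a ratio of 4.21 (3.92 to 4.53). At least 1 Cxcl2 UMI was found in 45.9% of lenvatinib cells and 95.1% of combo cells. T cells were at 102 and 238 CPM and neutrophil-gated cells at 8590 and 12589. Cells that failed only the C1q limit were at 727 and 3395 CPM. With a limit of 5 UMIs after thinning, set once values had been seen, 11.5% (6.98 to 17.6) and 43.0% (39.2 to 47.0) of selected cells were positive, against 1.33% and 3.46% of T cells. The gene is on mm10 chromosome 5, positions 90903871 to 90905938, plus strand.

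Saa3, Lrg1 and Wfdc21 were also among the 12 genes with the largest ratios. Saa3, an inflammation-induced serum amyloid A, was at 60.5 CPM (48.6 to 74.5) under lenvatinib and 626 (608 to 645) under combo, a ratio of 10.4 (8.16 to 13.3), with T cells at 1.07 and 7.06 CPM. A single cell gave 22.5% of the Saa3 UMIs under lenvatinib and 3.61% under combo. Lrg1, a secreted leucine-rich glycoprotein, was at 19.7 and 153 CPM against 1.2 and 11.7 in T cells. Wfdc21 was at 36.7 and 375 CPM against 3.73 and 33.55. Neutrophil-gated cells were at 505 and 1166 CPM of Lrg1, 3527 and 5820 of Wfdc21, and 0.583 and 31.4 of Saa3. Each of these 3 stood more than 7-fold higher under combo in the selected cells, and each also had a higher T cell level under combo, whose part in the ratio was not tested. Thinned to 2000 UMIs, 8.33% (4.51 to 13.8) and 24.6% (21.3 to 28.1) of selected cells held Saa3, against 0.179% and 1.28% of T cells, and 11.8% and 38.5% without thinning.

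The other genes at the top included Retnlg, Lmna, Ifitm1, Bst1, Basp1 and Mt1. Mt1, a metal-binding metallothionein, was at 220 CPM (197 to 246) and 747 (727 to 768). Bst1, an ectoenzyme of myeloid cells, was at 25.2 and 97.7 CPM, and Basp1 at 21.8 and 82.9. Ifitm1, an interferon-inducible membrane protein, was at 73.4 and 323 CPM, with T cells at 16.9 and 115 and neutrophil-gated cells at 1736 and 3135. Lmna, which encodes the nuclear lamins A and C, was at 23.1 and 115 CPM against 22.8 and 31.5 in T cells. Retnlg, a neutrophil gene, was at 5.44 and 118 CPM in selected cells and at 7.96 and 118 in T cells.

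Most of the 12 genes with the smallest ratios belonged to lymphocytes. Klra4 and Klra8, which encode Ly49 receptors of NK cells, were at 88.4 and 101 CPM under lenvatinib and at 12.05 and 16.5 under combo. Il2rb was at 184 and 52.6 CPM, Klre1 at 97.9 and 28.8, Ets1 at 101 and 27.6, Ms4a4b at 149 and 48.5, and the granzyme gene Gzma at 358 and 119. Klra receptors are a family of near-identical genes, so counts could be split among them. The remaining genes were Rgs1 (274 and 81.1 CPM), the heat shock gene Hspa1b (126 and 37.3), Lgals3bp (95.8 and 29.4), Nr4a3 (79.5 and 26.3) and Elane (105 and 32.0). A single cell gave 83.1% of the Elane UMIs under lenvatinib and 64.2% under combo.

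NK transcripts were concentrated in few of the selected cells. Cells with 2 or more UMIs of Ncr1, Klrb1c and Klre1 were 19 of 170 (11.2%, 6.86 to 16.9) under lenvatinib and 26 of 657 (3.96%) under combo. They had 1908 and 1696 CPM of Gzma, yet also 2959 and 5051 CPM of Lyz2. With those cells left out, a choice made once values had been seen, Gzma stood at 57.6 and 15.8 CPM and Klra8 at 4.87 and 1.88. Chil3 (730 and 3188 CPM), Cxcl2 (916 and 3377) and Saa3 (70.6 and 646) kept the order of the libraries. The genes past 2-fold were then 68 higher and 87 lower, of which 63 and 60 were among the 75 and 128.

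Across the whole marker lists of other cell types, 7 of the 8 NK genes considered were at least 2-fold lower under combo, with a median log2 ratio of -1.44 and a summed level of 942 and 372 CPM. Of 6 T cell genes considered, 5 were at least 2-fold lower, with sums of 322 and 120 CPM and Trac at 15.6 and 6.91 CPM. Of all 5609 genes, 2.28% were at least 2-fold lower. With cells of 2 or more UMIs of Ncr1, Klrb1c and Klre1 left out, Cd2, Lck and Trbc1 fell within 2-fold. Their log2 ratios were then 0.13, -0.97 and -0.85. The selection also capped Cd3 at 1 raw UMI whatever the depth, and 34 and 107 cells failed only that limit. The 2 B cell genes considered, Ighm and Igkc, were at 126 and 65.7 CPM and at 230 and 335, and Ms4a1 had 0 and 3 UMIs. Of 5 dendritic cell genes considered, Itgax (51.0 and 17.6 CPM) and Klrd1 (119 and 45.1) were at least 2-fold lower, and Flt3 was at 12.2 and 9.26 CPM. Klrd1 encodes CD94, a receptor subunit of NK cells, and Itgax encodes the integrin CD11c. Among cells with fewer than 2 UMIs of the 3 NK genes, Itgax was at 39.0 and 15.02 CPM.

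Among the 7 neutrophil genes considered, 5 were at least 2-fold higher and 2 lower, with sums of 508 and 989 CPM in selected cells and 102 and 448 in T cells under the same S100 limit. In neutrophil-gated cells the list summed to 66570 and 65506 CPM, and the part of neutrophil RNA in these values was not tested. Camp (19.7 and 54.9 CPM) and Ngp (13.6 and 62.6) were near their T cell levels of 19.9 and 61.3 and of 13.8 and 65.5 CPM. Lcn2, an iron-scavenging lipocalin, was at 151 and 394 CPM against 14.4 and 117 in T cells. Mmp8, a collagenase, was at 83.6 and 208 CPM against 0.765 and 9.64. The 2 lower genes, Elane and Mpo, are granule protein genes of early myeloid cells, and 1 cell gave 80.0% of the Mpo UMIs under lenvatinib and 53.6% under combo. Both had log2 ratios of -0.22, within 2-fold, when cells were thinned to 2000 UMIs before the selection, and so had Lcn2 at 0.96 and Mmp8 at 0.62. The limit of 20 CPM was not applied again in that setting, so such ratios can rest on few UMIs. The share of cells with at least 2 UMIs of Elane, Mpo, Prtn3 and Ctsg after thinning was 4.49% (1.82 to 9.03) and 4.07% (2.67 to 5.91), against 0.164% and 0.257% of T cells, with 8.24% and 23.0% of selected cells positive before thinning.

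**Figure D3:**
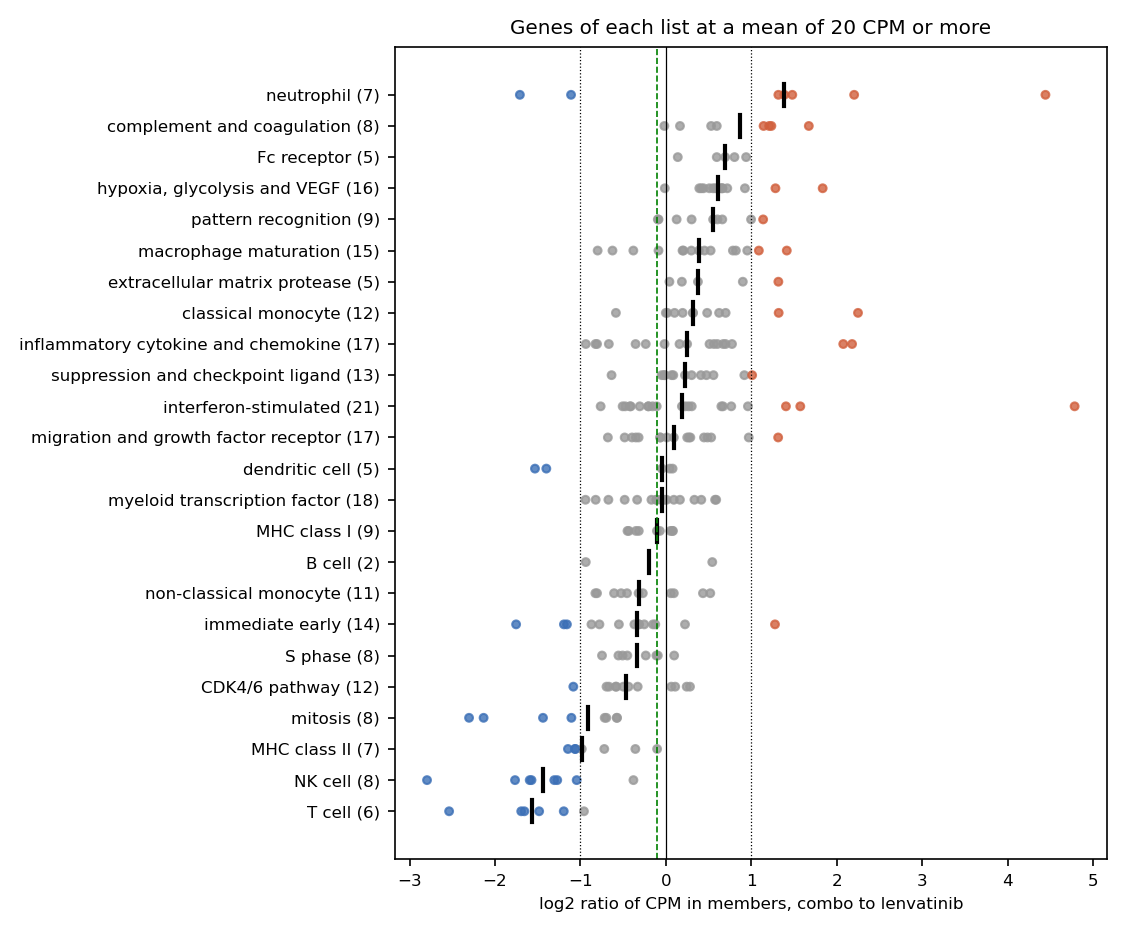
Log2 ratio of combo to lenvatinib in selected cells (x axis) for each considered gene of each list (y axis), with a black bar at the list median, a dashed line at the median over all 5609 genes and dotted lines at 2-fold, past which points are colored. Hypoxia, Fc receptor and complement genes lie mostly above 0, and MHC class II, mitosis and NK cell genes below 0.

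Of the 12 classical monocyte genes, 10 had ratios above 1 and 2 below, with a median log2 ratio of 0.32, and Chil3 and Hp were at least 2-fold higher under combo. Hp, the hemoglobin scavenger haptoglobin, was at 479 CPM (444 to 515) and 1194 (1169 to 1221), with T cells at 4.48 and 33.8. The 12 genes summed to 17520 and 25759 CPM in neutrophil-gated cells, whose part in these values was not tested. Ly6c2, which encodes Ly6C, had the smallest ratio of the list, with 843 CPM (797 to 891) under lenvatinib and 562 (544 to 580) under combo. Lyz2 and Thbs1, the matricellular protein thrombospondin 1, had ratios of 1.40 and 1.62, whereas Plac8 and S100a4 had ratios of 0.999 and 1.07. Ly6c2 and Chil3 thus lay on opposite sides of a ratio of 1. The log2 ratio of Hp was 0.99, under the 2-fold limit, when cells were thinned to 2000 UMIs before the selection.

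Ly6c2 was found after thinning in 53.2% (45.1 to 61.2) of selected cells under lenvatinib and 43.5% (39.6 to 47.5) under combo, a ratio of 0.818 (0.647 to 1.05). The unthinned shares were 66.5% and 67.6%. Thinned T cells, which can carry Ly6C themselves, were at 54.4% and 45.0%, and B cells at 11.6% and 11.8%. In Ly6c2-positive cells Chil3 was at 1017 and 3824 CPM and F13a1 at 883 and 805. In Ly6c2-negative cells Chil3 was at 151 and 2326 CPM and F13a1 at 115 and 423. The difference in Chil3 between libraries was therefore seen on both sides of the Ly6c2 limit.

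Of 11 non-classical monocyte genes considered, 0 passed 2-fold in either direction and the median log2 ratio was -0.32. Ear2, an eosinophil-type ribonuclease, had the smallest ratio, at 186 CPM (164 to 209) and 105 (97.2 to 113). Gngt2, a G protein subunit and the most abundant of the list, was at 404 and 545 CPM. Treml4, a receptor for dying cells, had the largest ratio, at 51.7 and 74.0 CPM. The adhesion gene Itgal (317 and 254 CPM) and the transcription factor gene Pou2f2 (196 and 205) had ratios near 1, as had Cx3cr1 at 114 and 122 CPM.

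The planned gate on all 13 non-classical genes also took 36.5% and 25.0% of thinned T cells, so a narrower one was set after its values had been seen. It asked for 2 UMIs over Treml4, Ace, Adgre4, Ear2, Eno3 and Cd300e. Under this gate 25.6% (19.0 to 33.2) of selected cells were positive under lenvatinib and 15.8% (13.1 to 18.9) under combo, a ratio of 0.616 (0.393 to 0.993). T cells were at 0.0896% and 0.0593%, and the unthinned shares of selected cells were 85 of 170 and 40.8%. Mki67, a gene of dividing cells, was at 3.59 and 10.0 CPM in the positive cells, and Ace at 313 and 312. MHC class II was detected by its own gate in 17 of 40 of them under lenvatinib and 16 of 101 under combo.

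MHC class II genes, whose products show peptides to CD4 T cells, were lower under combo as a list. All 7 had ratios below 1, with a median log2 ratio of -0.98, and H2-Aa, H2-Ab1 and Ciita were at least 2-fold lower. Over all 5609 genes the lower quartile was -0.35 and 2.28% were at least 2-fold lower. H2-Aa was at 801 CPM (756 to 848) under lenvatinib and 362 (348 to 376) under combo, and H2-Ab1 at 808 and 387. Cd74, the invariant chain that guides class II molecules, was at 1886 (1817 to 1958) and 1145 CPM (1119 to 1170). H2-Eb1 was at 584 and 295 CPM. The list's largest ratio was that of H2-DMa, a peptide-loading chaperone, at 167 and 156 CPM. Ciita, the class II transactivator, was at 31.3 CPM (22.9 to 41.7) and 14.99 (12.2 to 18.2). Under median-of-ratios scaling 6 of 7 stayed below 1 and 0 passed 2-fold. The summed level of the 7 genes was 4406 and 2459 CPM in selected cells. In cells that failed 1 limit alone it lay the other way, at 8923 and 13882 CPM in cells with 10 or more C1q UMIs and at 25535 and 28545 in Cd209a-positive cells, and that difference between cell groups was not tested. Itgax, a gene that dendritic cells also carry, was lower with the list, at 51.0 and 17.6 CPM in selected cells, and its part in the result was not tested.

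Promoters of the list are shown because class II genes share an upstream element of which the CCAAT box is a part. RefSeq (GRCm38.p6) promoters, running from 250 bases before to 50 after the start, were found for 4 of the 7 genes, and 3 are printed in transcript orientation with CCAAT, or ATTGG on the other strand, in capitals. They are chr17:34287774-34288073 (minus strand) for H2-Aa, chr17:34305617-34305916 (plus strand) for H2-Eb1 and chr17:34152941-34153240 (plus strand) for H2-DMb1. The first match lay 48, 59 and 61 bases before the start. All 4 matched genes held the letters in at least 1 window, though an H2-DMa window held 0 matches. Counted by single promoter instead of by gene, 12289 of 32851 (37.4%) held them.
H2-Aa: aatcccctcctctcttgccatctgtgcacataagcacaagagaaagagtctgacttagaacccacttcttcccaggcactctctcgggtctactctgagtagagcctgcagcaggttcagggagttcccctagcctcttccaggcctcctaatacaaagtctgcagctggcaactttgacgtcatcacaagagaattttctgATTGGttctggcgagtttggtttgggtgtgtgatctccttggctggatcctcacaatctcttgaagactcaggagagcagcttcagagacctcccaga
H2-Eb1: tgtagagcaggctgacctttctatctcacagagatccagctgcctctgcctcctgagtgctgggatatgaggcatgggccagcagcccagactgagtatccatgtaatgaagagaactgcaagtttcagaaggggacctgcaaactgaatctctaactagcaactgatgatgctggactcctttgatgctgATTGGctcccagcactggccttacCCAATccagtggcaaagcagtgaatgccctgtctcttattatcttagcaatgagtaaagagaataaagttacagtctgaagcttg
H2-DMb1: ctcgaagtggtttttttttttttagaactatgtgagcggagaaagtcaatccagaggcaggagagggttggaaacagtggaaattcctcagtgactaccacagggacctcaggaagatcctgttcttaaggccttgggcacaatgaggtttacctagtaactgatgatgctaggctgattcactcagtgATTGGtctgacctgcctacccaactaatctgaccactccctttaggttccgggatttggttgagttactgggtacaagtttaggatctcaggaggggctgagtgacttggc

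The MHC class II gate asked for at least 4 UMIs over H2-Aa, H2-Ab1, H2-Eb1 and Cd74 after thinning. Positive cells were 42 of 156 (26.9%, 20.1 to 34.6) under lenvatinib and 84 of 639 (13.1%, 10.6 to 16.01) under combo. The ratio of shares was 0.488 (0.307 to 0.795). T cells passed in 1.39% and 1.19%, B cells in 93.8% and 98.4%, C1q-high cells, those with 10 or more C1q UMIs, in 14 of 24 and 22 of 28, and the unthinned shares of selected cells were 39.4% and 26.8%. Within the positive cells Cd74 was nearly the same in both libraries, at 8092 and 8026 CPM, and H2-Aa was at 3571 and 2591. Those cells had little Chil3, 165 and 847 CPM, beside 642 and 3051 in all selected cells. In Ly6c2-negative cells H2-Aa was at 1613 and 630 CPM, in Ly6c2-positive cells at 203 and 83.5.

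MHC class I genes were all within 2-fold, with a median log2 ratio of -0.11 that turned to 0.09 under median-of-ratios scaling. B2m, the light chain of class I, was at 1847 and 1482 CPM, and H2-K1 and H2-D1 at 1563 and 1157 and at 1152 and 1220.

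Of 15 macrophage maturation genes considered, 2 were at least 2-fold higher under combo, Trem2 among them, and 0 were lower, with a median log2 ratio of 0.39. Trem2, a lipid-sensing receptor, was at 51.0 CPM (40.1 to 63.9) and 136 (127 to 145). Apoe, the lipid carrier apolipoprotein E, was at 791 and 1394 CPM. Ctsb and Ctsd, lysosomal proteases, were at 833 and 954 and at 313 and 450 CPM. Cd9 had the smallest ratio, at 99.9 and 57.4 CPM.

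The 25 and 28 C1q-high cells, which passed every other limit, set a scale for these values. Apoe was at 16035 CPM under lenvatinib and 9743 under combo in those cells, and Ctsd at 4458 and 923. Kupffer cell genes summed to 1349 and 63.9 CPM there. Chil3 was at 65.5 and 1996 CPM and Hp at 16.4 and 220. The C1q-high cells therefore also had more Chil3 under combo, while their Apoe was lower. With 1 library per condition none of these differences was tested.

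Fc receptor and pattern recognition genes were mostly higher under combo. The median log2 ratio of the 5 Fc receptor genes was 0.69, beside an upper quartile of 0.14 over all 5609 genes. All 5 had ratios above 1, although 0 passed 2-fold. The largest was for Fcgr3, the low-affinity IgG receptor III, at 149 CPM (130 to 170) and 285 (273 to 298), and the smallest for the shared signaling chain Fcer1g at 2048 and 2255. Of 9 pattern recognition genes, 1 was at least 2-fold higher, Clec4d at 37.4 and 82.3 CPM, and its log2 ratio was 0.53 when each cell counted equally. Cd14, the lipopolysaccharide co-receptor, was at 276 (250 to 304) and 551 CPM (533 to 569), a ratio of 2.00 that fell just short. Clec4e, a sensor of dead cells, was at 338 and 416 CPM, and Tlr7, a receptor for single-stranded RNA, had the smallest ratio at 57.1 and 53.5.

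Complement and coagulation genes had the highest median among lists of the cells' own genes, a log2 ratio of 0.87. Of 8 considered, 4 were at least 2-fold higher, beside 1.34% of all 5609 genes. Cfb, a protease component of the alternative pathway, was at 15.6 CPM (9.91 to 23.5) and 34.5 (30.3 to 39.2). Coagulation factors F10 and F5 were at 133 and 308 and at 17.7 and 41.6 CPM. The log2 ratios of F10 and F5 were 0.90 and 0.95 when cells were thinned to 2000 UMIs before the selection, and that of Cfb was 0.94 with combo counts thinned to the lenvatinib total, all under the 2-fold limit. Plaur, the urokinase receptor, was at 218 and 314 CPM. T cell levels of these genes stayed below 20 CPM in both libraries. Thbd, thrombomodulin, had the smallest ratio of the list at 39.4 and 38.9 CPM. Of the 5 matrix protease genes considered, Mmp8 was the 1 past 2-fold.

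Inflammatory genes split. Of 17 considered, Cxcl2 and Cxcl1 were at least 2-fold higher and 0 were lower, with a median log2 ratio of 0.25. The whole list summed to 5102 and 7633 CPM in selected cells and to 16069 and 18474 in neutrophil-gated cells. Cxcl1, the paralog of Cxcl2, was at 12.2 and 55.4 CPM, with 1 cell giving 55.6% of its UMIs under lenvatinib. Il1b, the pyrogenic cytokine interleukin 1 beta, was at 770 CPM (726 to 816) and 1097 (1072 to 1122), and Ccl2, the ligand of CCR2, at 167 and 271. The chemokine genes Ccl4 (693 and 437 CPM) and Ccl5 (590 and 333) were lower, and T cells held 4333 and 6816 CPM of Ccl5. The direction of Ccl5 and Ccl2 turned, to log2 ratios of 0.20 and -0.30, when cells were thinned to 2000 UMIs before the selection. Cxcl16 had the smallest ratio, at 32.6 and 17.0 CPM.

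Interferon-stimulated genes did not move together. Of 21 considered, Ifit1, Gbp2 and Cxcl9 were at least 2-fold higher, 0 lower, and 11 lay above and 10 below a ratio of 1. Ifit1 lost its call when cells were thinned to 2000 UMIs before the selection, at a log2 ratio of 0.73, and Gbp2 when cells with fewer than 20 C1q UMIs were taken, at 0.65. A single cell gave 76.2% of the Cxcl9 UMIs under combo. Ly6e, the most abundant, was at 1326 CPM (1267 to 1386) and 1150 (1125 to 1176), Isg15, a ubiquitin-like modifier, at 119 and 70.1, and Ifi204, a DNA sensor, at 272 and 310. The planned interferon gate took 68.6% (60.7 to 75.8) and 60.3% (56.3 to 64.1) of selected cells but also 39.2% and 24.6% of T cells. A gate without Ly6e, added later, took 19.9% (13.9 to 27.0) and 19.1% (16.1 to 22.4), a ratio of 0.961 (0.597 to 1.61), against 9.63% and 4.80% of T cells. Without thinning the gate took 69.4% and 65.8% of selected cells.

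Glycolysis and hypoxia genes lay mostly above 1. Of 16 considered, 15 had ratios above 1, with a median log2 ratio of 0.61 beside an upper quartile of 0.14 over all 5609 genes. Beside 1.34% of all 5609 genes, 2 of the 16 were at least 2-fold higher. Those were Bnip3, a mitophagy receptor induced by hypoxia, at 19.0 CPM (12.6 to 27.5) and 67.9 (61.8 to 74.4), and Ero1l, an oxidase of the endoplasmic reticulum, at 35.3 and 85.9. Gapdh, the most abundant, was at 1291 and 1752 CPM, Pkm at 553 and 876, and Aldoa at 446 and 665. Vegfa, which encodes a ligand of a receptor that lenvatinib blocks, had the smallest ratio, at 39.4 CPM (29.9 to 51.0) and 39.1 (34.5 to 44.1). Its log2 ratio went from -0.01 to 0.78 when cells were thinned to 2000 UMIs before the selection. The list summed to 4444 and 6602 CPM in selected cells and to 3597 and 4841 in T cells, so a combo level above the lenvatinib level was present in T cells too.

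A gate of 15 UMIs over these genes after thinning, added once values had been seen, took 6.41% (3.12 to 11.5) of selected cells under lenvatinib and 24.6% (21.3 to 28.1) under combo. T cells went from 4.99% to 15.8%, and selected cells without thinning from 69.4% to 77.9%. The 157 positive combo cells had 986 CPM of Saa3 and 4511 of Cxcl2, against 463 and 2698 in the negative ones. Arg1, an arginine-degrading enzyme, was at 66.2 CPM in the positive and 0.648 in the negative combo cells, but 1 cell gave 70.3% of its combo UMIs and lenvatinib cells had 0 of 1471052 UMIs.

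Suppressive and checkpoint genes were largely level between libraries. Of 13 considered, 1 was at least 2-fold higher, Entpd1, the ATP-hydrolysing ectoenzyme CD39, at 21.8 CPM (14.9 to 30.7) and 43.8 (39.0 to 49.0). That call was lost under several alternatives, down to a log2 ratio of 0.49 when each cell counted equally. Lgals3, galectin 3, was at 1170 and 1625 CPM. Cd274, which encodes PD-L1, had the smallest ratio, at 60.5 CPM (48.6 to 74.5) and 38.9 (34.4 to 43.9). Its direction turned, from a log2 ratio of -0.64 to 0.50, when cells were thinned to 2000 UMIs before the selection. Sirpa, which receives the CD47 signal, was at 236 and 232 CPM.

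Of 17 migration and growth factor receptor genes considered, the complement C5a receptor gene C5ar1 was past 2-fold, at 43.5 CPM (33.5 to 55.6) and 108 (100 to 116). When each cell counted equally the log2 ratio of C5ar1 was 0.81, under the 2-fold limit. The integrin gene Itga4, the most abundant, was at 447 and 350 CPM. Receptors that lenvatinib blocks were hardly found. Over 10 genes they summed to 31.3 and 18.7 CPM, with 0 and 3 UMIs of Kdr and 0 and 0 of Pdgfra, and no gene reached 20 CPM in mean.

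Myeloid transcription factors stayed within 2-fold, 18 of 18, with a median log2 ratio of -0.05 that turned to 0.14 under median-of-ratios scaling. Cebpb, which drives emergency myelopoiesis, was the most abundant at 1725 CPM (1658 to 1793) and 2173 (2138 to 2209). Spi1, which encodes PU.1, had the largest ratio at 334 and 502 CPM, and Id2 the smallest at 553 and 288. Nr4a1, on which non-classical monocytes depend, was at 494 and 457 CPM, and Irf8 at 377 and 236. The log2 ratio of Irf8 turned from -0.67 to 0.08 when cells were thinned to 2000 UMIs before the selection.

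Immediate early and heat shock genes had a median log2 ratio of -0.34 over 14 genes, with 3 at least 2-fold lower and 1 higher. The lower ones were Egr1 (172 and 75.2 CPM), Hspa1a (111 and 49.95) and Hspa1b, and the higher one was Ier3, at 260 and 631. The calls of Egr1, Hspa1a and Ier3 were each lost under an alternative, at log2 ratios of -0.99 with each cell counted equally, -0.81 with at least 5 monocyte gene UMIs and 0.998 with cells thinned before the selection. Junb, the most abundant, was at 2104 and 1895 CPM and Fos at 1474 and 1007.

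Palbociclib acts on CDK4 and CDK6, and the genes around these kinases were read in the same cells. Cdk4 was at 57.1 CPM (45.5 to 70.7) and 67.6 (61.5 to 74.1), and Cdk6 at 63.9 (51.6 to 78.2) and 40.3 (35.6 to 45.3). When cells were thinned before the selection, the log2 ratio turned from 0.24 to -0.10 for Cdk4 and from -0.67 to 0.09 for Cdk6. That of Cdk4 was -0.13 when each cell counted equally. Of 12 pathway genes considered, 1 was at least 2-fold lower, the cyclin D1 gene Ccnd1 at 59.1 and 27.9 CPM, and the median log2 ratio was -0.47. The call of Ccnd1 was lost under median-of-ratios scaling, at a log2 ratio of -0.89, and with combo counts thinned to the lenvatinib total, at -0.98. Cdkn1a, which encodes the CDK inhibitor p21, had the largest ratio and the highest level, at 353 and 429 CPM. MHC class II-positive cells held more Ccnd1, at 228 and 102 CPM, than all selected cells.

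Mitosis genes were lower in the summed counts. Of 8 considered, all had ratios below 1 and 4 were at least 2-fold lower, with a median log2 ratio of -0.91. Among all 5609 genes, 2.28% were at least 2-fold lower and the lower quartile was -0.35. Top2a, a topoisomerase of dividing cells, was at 133 CPM (115 to 153) and 48.9 (43.8 to 54.5), and Mki67 at 122 and 56.9. The smallest ratio was that of Cenpf, a kinetochore protein gene, at 54.4 and 11.0 CPM, of which 1 cell gave 33.8% of the UMIs under lenvatinib. After thinning, 9 of 156 cells (5.77%, 2.67 to 10.7) and 41 of 639 (6.42%, 4.64 to 8.60) passed the mitosis gate, a ratio of 1.11 (0.435 to 3.22). Over the alternatives the ratio ran from 0.630 to 1.97, so no order of the shares can be read. T cells passed in 10.9% and 2.67%, and the unthinned shares of selected cells were 11.8% and 23.1%. When each cell counted equally, 4 mitosis genes were considered and their median log2 ratio was 0.04.

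The mitosis-positive cells had a median of 20040 UMIs under lenvatinib, over 9 cells, and 10480 under combo. All selected cells had medians of 7228 and 10155. The mitosis-positive cells had 836 and 472 CPM of Mki67. Chil3 was at 87.4 and 2613 CPM in them. S phase genes stayed within 2-fold, 8 of 8, with a median log2 ratio of -0.34. Pcna, the sliding clamp of DNA replication, was at 206 and 140 CPM, the smallest ratio was that of Tyms (30.6 and 18.2) and the largest that of Mcm4 (25.8 and 27.6).

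**Figure D4:**
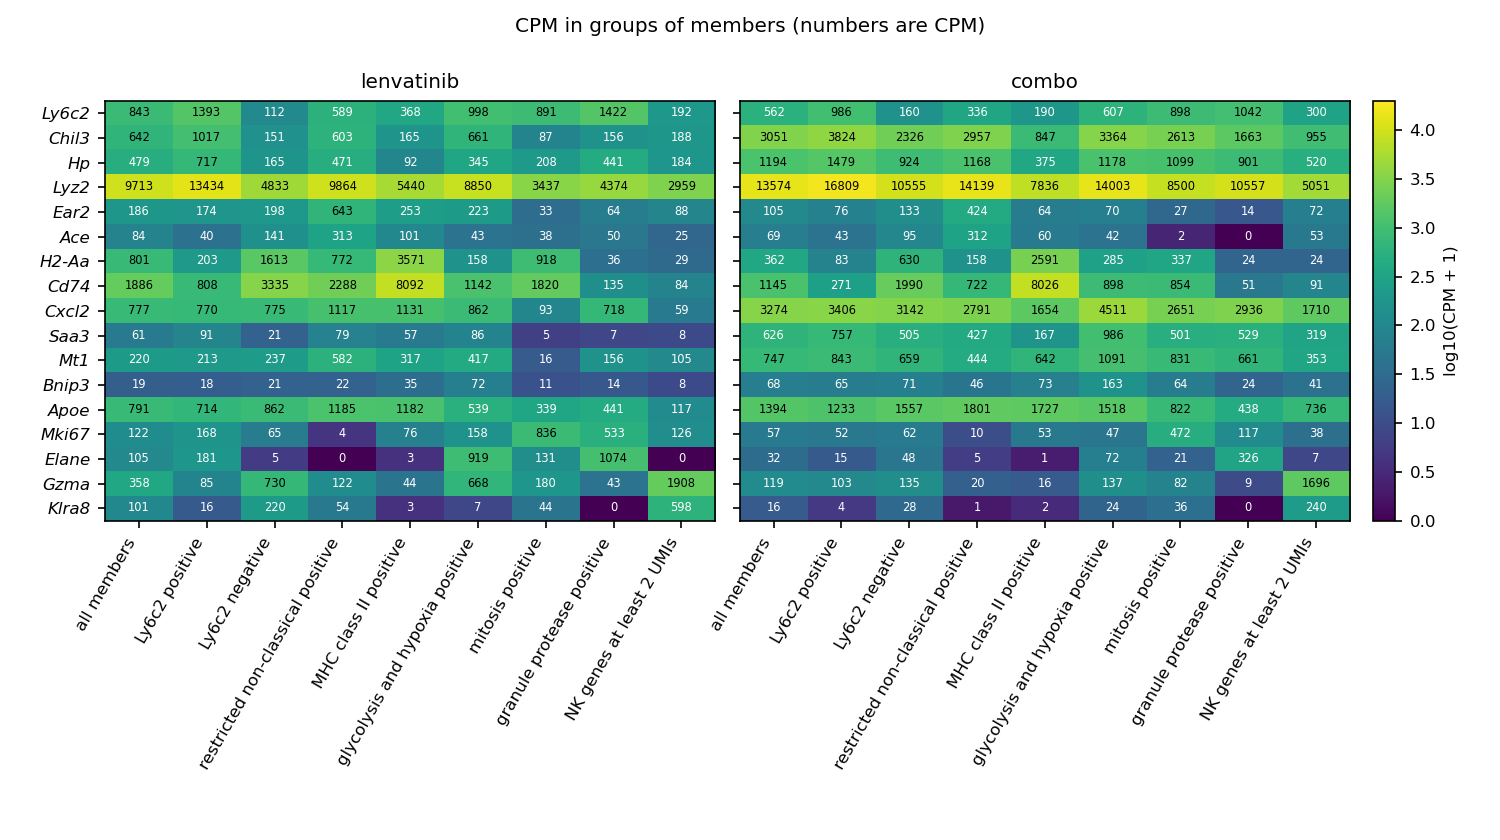
CPM of selected genes (rows, color on a log10 axis, numbers in CPM) in all selected cells and in groups (columns), for lenvatinib and combo. Groups were set by thinned counts, except the NK gene group, which was set by unthinned counts. Chil3 is lowest in mitosis-positive lenvatinib cells, at 87.4 CPM, and NK gene-positive cells hold the most Gzma, at 1908 and 1696 CPM.

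**Figure D5:**
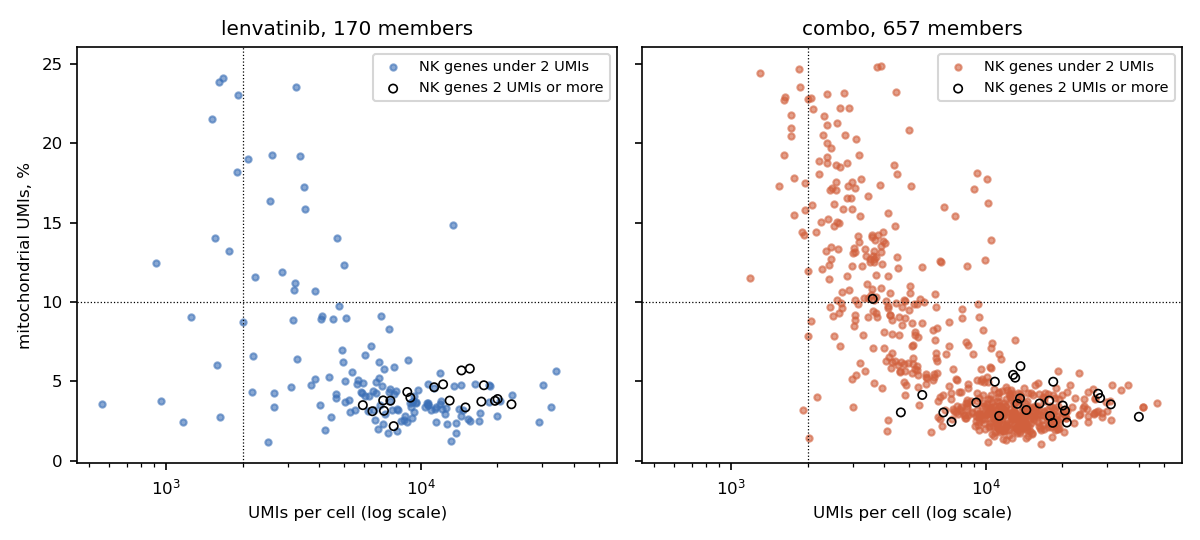
Each selected cell by total UMIs (x axis, log scale) and percent mitochondrial UMIs (y axis), for lenvatinib and combo, with open circles for cells with 2 or more UMIs of Ncr1, Klrb1c and Klre1 and dotted lines at 2000 UMIs and 10%. The 23 and 145 cells above 10% have medians of 2616 and 3069 UMIs and lie to the left.

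Cells with over 10% mitochondrial UMIs were poorer in Lyz2, at 2620 and 3728 CPM, than the rest, at 10079 and 14373. In the rest, Chil3 was at 667 and 3221 CPM, Cxcl2 at 791 and 3270, Saa3 at 63.6 and 662, and H2-Aa at 803 and 381. These 4 genes thus had the same order of libraries among cells of at most 10% mitochondrial UMIs as among all.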

How the data were processed

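Live CD45+ cells of liver tumors were profiled in 2 libraries (lenvatinib and combo) with 3' droplet chemistry. The authors deposited UMI count matrices, genes by cell barcodes, made with Cell Ranger, version 5.0.1 in the submitters' processing notes and 6.0.1 in the file header, on mm10, with 32285 genes. In this work, cells with over 6000 genes or over 25% mitochondrial UMIs were removed. The members and the 30 gene lists were chosen with earlier results of these data known. Counts were summed over the selected cells of a library and divided by their total to give CPM. Genes of at least 20 CPM in mean were considered, called at 2-fold, with a floor of 3 UMIs in ratios. Named genes were, per list, the most abundant, the largest and smallest ratios and others of at least 200 CPM, the 12 largest and 12 smallest ratios of genes of at least 50 CPM outside the selection rule, and the 10 highest against other cells. Others named, among them Ptprc, Arg1, Cx3cr1, Irf8, Ccl2 and Flt3, were picked after their values were seen. Gates were set on counts after each cell was thinned to 2000 UMIs, which left out 14 and 18 selected cells. T cells had at least 2 Cd3 UMIs and B cells at least 2 Cd79a UMIs, with no Csf1r. Doublets were called with Scrublet (scanpy 1.11.5, expected rate 6%) and kept except in an alternative. For 38 symbols with several identifiers the first was used. Listed genes Mx1 and Clec7a were not analysed here, and some genes that the naming rule picks are not reported here. Steps were tested on simulated counts and run in Python 3.11.15, numpy 2.4.6, scipy 1.17.1 and pandas 2.3.3. Gene positions are from the mm10 annotation used here. Alternatives on NK genes, shared barcodes and mean T cell levels, and the narrower gates, were chosen after seeing the data.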

Additional observations from a re-analysis of the deposited data

How the results depend on the processing

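No paired analysis was possible because each condition had 1 library. The ratio of member shares lay between 4.24 and 5.38 under every alternative except the denominator without T, B and NK cells (3.36). Counts of genes at least 2-fold higher and lower under combo were 200 and 488 with a mean CPM minimum of 5, 41 and 42 with a minimum of 50, and 126 and 72 under median-of-ratios scaling. Leaving out genes whose T cell level was 50% or more of the selected cells' level in either library left 1019 genes, 50 higher and 10 lower. That limit depends on the change itself, since a gene low in 1 library meets it more easily, and with the mean of both libraries, chosen after seeing the data, 53 and 13 of 1150 were past 2-fold. The interferon gate gave a ratio of shares of 0.73 at 1000 UMIs (37.7% and 27.6%). Of 67 listed or named genes past 2-fold, 29 stayed past it under every alternative that recomputed ratios and 38 fell under it in at least 1, most often, for 23 genes, when cells were thinned to 2000 UMIs before the selection. For these counts the limit of 20 CPM was applied to the reported values only, so a gene with few UMIs in an alternative was still counted. Leaving out NK gene-positive cells took 10 calls, counting each cell equally 9 and median-of-ratios scaling 8. Klra8 reversed to a log2 ratio of 0.056, Ncr1 to 1.31, Prf1 to 0.34 and Cd2 to 0.37 when cells were thinned to 2000 UMIs before the selection, which left 75 and 357 selected cells and 99 higher and 129 lower genes, 49 and 37 of them shared with the reported sets. The cause was not tested. In the same setting the interferon list's median log2 ratio was -0.25 and 0 of 7 MHC class II genes passed 2-fold, with a median of -0.63. The MHC class II gate gave ratios of 0.457 to 0.680 over all alternatives, and the mitosis gate 0.630 to 1.97, on both sides of 1. Log2 ratios of Chil3 lay between 2.12 and 2.44, of Cxcl2 between 1.64 and 2.68, of Saa3 between 2.75 and 3.56, and of H2-Aa between -1.50 and -0.76. The low number of lenvatinib cells, 170, limits every value, and the sources give no replicate.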
